A study of Mus musculus with 50 samples.

Results

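FVB/NJ is an albino inbred mouse strain of Swiss origin that is widely used to make transgenic mice. Its dorsal root ganglia, the clusters of sensory neuron cell bodies beside the spinal cord, were compared with those of other inbred strains. The strain was chosen by its label, and 2 of the 50 arrays of the series carry that label, 1 male and 1 female. All groups were naive wildtype mice aged 2 months, with 25 strains and 1 array for each sex of each strain. Each array held RNA pooled from 3 mice of 1 sex, so the spread between individual mice was not measured, and these pools, 1 a sex, were the only replicates of a strain. FVB/NJ was set against the 44 arrays of 22 other strains: AKR/J, BALB/CByJ, 129S1/Sv1mJ, BTBT T+tf/J, SJL/J, c57BL/6J, NZW/LacJ, BUB/BnJ, CBA/J, KK/HIJ, C58/J, RIIIS/J, NZO/HILtJ, DBA/2J, C3H/HeJ, NOD/LtJ, C57BR/cdJ, P/J, MRL/MpJ, SWR/J, A/J and NON/LtJ, spelled as in the labels. The 4 arrays of SM/J and PL/J were left out because their labels are in doubt.

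The dorsal root ganglion holds several kinds of sensory neuron, among them nociceptors that respond to harmful stimuli, itch neurons, low-threshold C fibres for gentle touch and large myelinated neurons for touch and limb position. Satellite glia wrap the cell bodies and Schwann cells wrap the axons. Inbred strains carry fixed alleles, so a transcript can differ between strains in the ganglia of untreated animals. An array probe can also bind a strain's allele less well than the reference sequence it was designed on. Throughout, such a loss of binding and a lower transcript level cannot be told apart, and in a whole ganglion fewer cells of a type and less RNA per cell cannot be told apart either.

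The FVB/NJ arrays read as ganglion. The 11 measured markers of sensory neurons, Schwann cells and satellite glia had FVB/NJ means of 7.44 to 13.81 log2 units, and none differed at an adjusted p under 0.05, with differences of -0.46 to 0.23 from the other strains. Xist read 2.39 in males' RNA and 10.60 in females' RNA of FVB/NJ, and the Y-linked Eif2s3y read 7.04 and 3.06, as the sex labels give. Among the males it was compared with, 1 (BTBT T+tf/J) read 7.78 for Xist. Liver transcripts were present. Their list mean, over 24 tested genes, was 4.24 in the FVB/NJ male (rank 4 of 23 males; others 3.07 to 5.11, median 3.36) and 4.96 in the female (rank 3 of 23 females; others 3.25 to 6.55, median 3.45). By strain, DBA/2J (5.70) and C58/J (5.10) lay above FVB/NJ (4.60). Of the liver genes, 7 of 24 were called higher, led by Alb at 4.12 ± 0.31 and Ttr at 2.75 ± 0.24 log2 units, while the defining liver markers Apoa1 (-0.06, adjusted p = 0.975) and Fgb (0.61, adjusted p = 0.295) were not. These genes are left out of the called genes described below, but not of totals or shares over all probe sets or all genes. Their part in the other results was not tested beyond the fit with the liver mean as a covariate.

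The comparison asks which transcripts sit at another level in FVB/NJ than in the mean of the other strains. Of 22130 probe sets tested, 189 (0.854%) were called, 97 higher and 92 lower. A call needed an adjusted p under 0.05 by limma, a difference of at least 1 log2 unit and the same sign in both FVB/NJ arrays. At the level of genes 85 of 11209 were called (0.758%), 43 higher (0.384%) and 42 lower (0.375%). Without the 7 liver genes, 36 were higher and 42 lower. The error of this test is the spread between a strain's pools of either sex, so a call says that FVB/NJ differs from the mean of the others and not that it differs from every strain. In 62 of the 78 called genes the FVB/NJ values overlapped those of other strains. In 16, 6 higher and 10 lower, both FVB/NJ arrays lay outside all 22 other arrays of their sex, against 63 such genes among all tested, called or not (0.562%; 0.178% higher and 0.384% lower). A further fit took strain as a random block, which lets the spread between strains into the error. It did so by 1 correlation (0.246) shared by all probe sets, so the error is not each gene's own strain spread. This fit is named strain spread as error below. It called 13 genes (0.116%), all of them also called in the first test. Psmc3ip, Aspa, Fmo2 and Srprb were higher. Capzb, Fgf1, Acad9, Tpd52l1, Map7, Lipo3, Ncoa7, Snhg12 and 2700081O15Rik were lower. The median difference over all tested genes was -0.04.

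**Figure D1:**
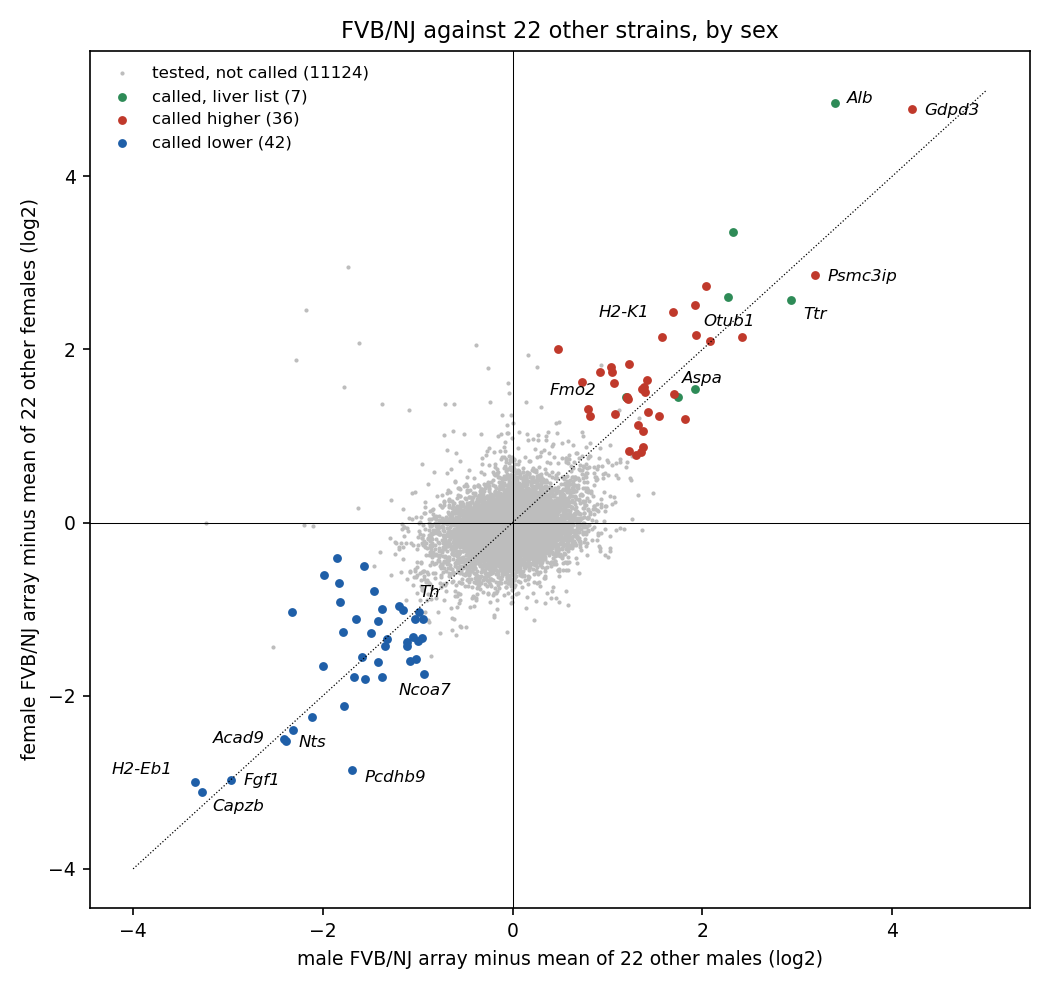
Each point is 1 of 11209 genes, with the male FVB/NJ array minus the mean of 22 other males on the horizontal axis and the female array minus the mean of 22 other females on the vertical axis, both in log2 units; the dotted line marks equal values. Called genes lie in the upper right (36 higher, red; 7 liver genes, green) and the lower left (42 lower, blue), with Gdpd3 and the liver gene Alb at the far upper right and Capzb, H2-Eb1 and Fgf1 at the far lower left.

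The widest separation from other strains was that of Capzb, described first among the named genes of the cytoskeleton and of protein handling. Capzb encodes the beta subunit of the capping protein that closes the growing ends of actin filaments. It read 7.23 in the male and 7.46 in the female FVB/NJ array, while the other males ran from 10.32 (median 10.49) to 10.94 and the other females from 10.32 (median 10.55) to 10.92. Neither FVB/NJ array came within 2.86 log2 units of another strain's array of its sex. The difference was -3.19 ± 0.11 (SE, n = 2 arrays), 9.15-fold lower (limma, adjusted p = 3.14e-17), and all 3 tested probe sets of the gene were called lower, the other two by -2.01 and -2.20. Map7, a protein that binds microtubules, read 6.20 and 6.62 in FVB/NJ against medians of 8.28 and 8.37 in the other males and females. Its difference was -1.83 ± 0.17 (adjusted p = 3.45e-08), and NOD/LtJ, at 6.44, was the 1 other strain at the FVB/NJ level. Cap1, which helps to recycle actin monomers, had a difference of 2.05 ± 0.38 (adjusted p = 0.00179), but its FVB/NJ mean of 10.80 was shared by 13 other strains, and the 9 strains farther away pulled the mean of the others down to 8.76. The Cap1 call was lost without the FVB/NJ male (adjusted p = 0.0590), without the FVB/NJ female (0.0888) and with the liver mean as covariate (0.204). Srprb, the beta subunit of the receptor that docks ribosomes at the endoplasmic reticulum, read 7.06 and 6.64, above all other males (5.46 to 6.16) and all other females (5.41 to 6.57). It was higher by 1.04 ± 0.15 (adjusted p = 3.97e-05), its call was lost without the FVB/NJ male (0.78, adjusted p = 0.0531), and its 3 tested probe sets disagreed, at 1.04, 1.48 and -0.03. Otub1 encodes an enzyme that removes ubiquitin chains. It read 9.31 and 9.39 against the highest other values of 8.38 in males and 7.76 in females, a difference of 2.22 ± 0.31 (adjusted p = 4.56e-05), with a further probe set also called, at 1.36.

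Named genes of growth factor and other signalling were called in both directions. Fgf1, a fibroblast growth factor that sensory neurons hold in quantity, read 7.97 in the male and 7.78 in the female FVB/NJ array. The medians of the other strains were 11.02 in males and 10.89 in females, and the highest values 11.35 and 11.35. The only strain beside FVB/NJ was SWR/J, at 8.20 in the male and 7.01 in the female, and the lowest of all other arrays read 10.16. The difference was -2.97 ± 0.15, 7.85-fold lower (adjusted p = 2.19e-13), with further probe sets at -2.68 (called) and -0.92 (not called). Ncoa7, a coactivator of nuclear receptors, read 8.85 and 8.49, below every other male (9.77 to 10.43) and every other female (9.45 to 10.54). Its difference was -1.58 ± 0.14 (adjusted p = 1.78e-08), though its other tested probe set showed -0.21 (adjusted p = 0.829). Tyro3, a receptor tyrosine kinase of the family that recognises dying cells and membranes, read 5.29 and 4.43, below the lowest other male (5.80) and female (5.002). Its difference of -1.25 ± 0.20 (adjusted p = 3.32e-04) did not hold without the FVB/NJ female (adjusted p = 0.0563) or with the liver covariate (0.0818). Gng4, a gamma subunit of heterotrimeric G proteins, was lower by one probe set (-2.35 ± 0.21, adjusted p = 1.95e-08) and not by its other two (-0.32 and -0.02), and 129S1/Sv1mJ, KK/HIJ and SWR/J were equally low. Rasgrf1, an exchange factor that activates Ras after calcium entry, went the other way. It read 6.85 and 6.96, above the highest other male (6.36) and female (6.76), a difference of 1.45 ± 0.24 (adjusted p = 3.13e-04) that lost its call with the liver covariate (1.19, adjusted p = 0.120). Postn, the matrix protein periostin, read 7.14 and 7.52 against medians of 8.67 and 8.61, a difference of -1.39 ± 0.17 (adjusted p = 3.00e-06) shared with SWR/J, A/J, 129S1/Sv1mJ and BTBT T+tf/J. It was the 1 called gene among 28 tested fibroblast and matrix genes, whose median was 0.06, where 0.758% of all genes were called.

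**Figure D2:**
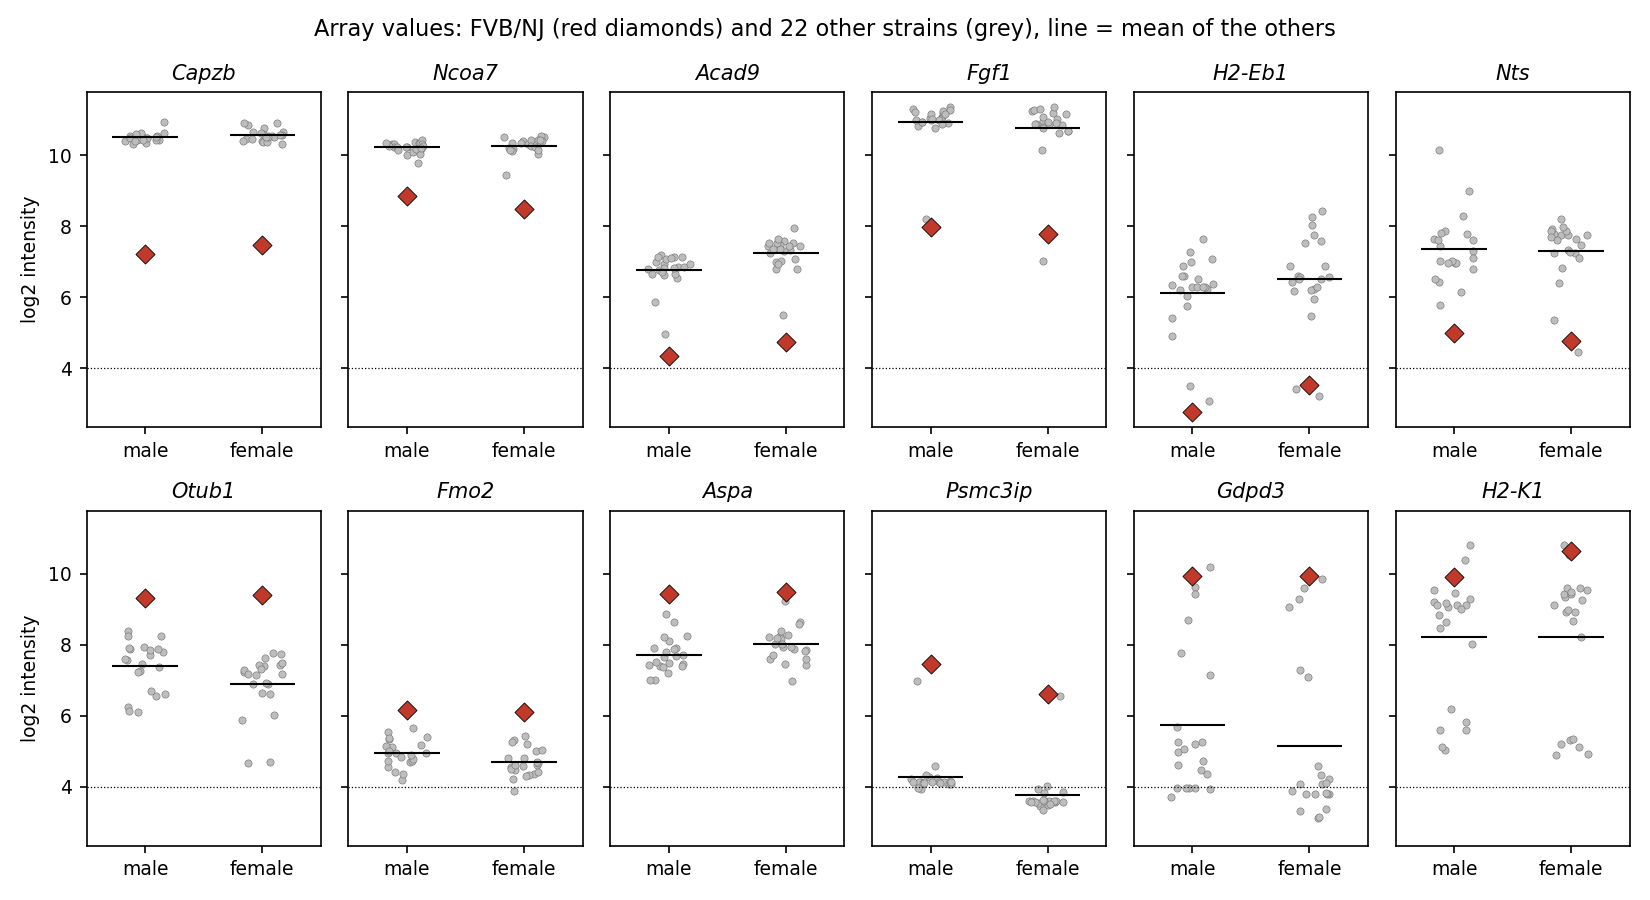
Log2 intensity of 12 genes on each array, males on the left and females on the right of each panel; red diamonds are FVB/NJ, grey points the 22 other strains, black lines the mean of those 22, and the dotted line a log2 intensity of 4. Capzb and Ncoa7 stand apart from every other strain, and Acad9 lies below all others with 1 strain near it, whereas Fgf1 and H2-Eb1 share their low level with 1 and 2 strains and Gdpd3 and H2-K1 fall among other strains with high values.

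The genes of the major histocompatibility complex on chromosome 17 moved in both directions. Class II molecules present peptides from outside the cell to helper T cells and are built from an alpha and a beta chain. H2-Eb1 encodes the beta chain of the E molecule and H2-Aa the alpha chain of the A molecule, and in the order of tested genes H2-Aa is number 251 and H2-Eb1 number 252 on the chromosome. Their promoters, as RefSeq gives them in build GRCm38.p6 from 250 bases before to 50 after the start, are shown because the neighbours share the same short boxes but differed in opposite directions. H2-Eb1 covers chr17:34305617-34305916 on the + strand and H2-Aa chr17:34287774-34288073 on the - strand. Capitals mark the letters GCAAC (found in the X box of class II promoters) and ATTGG (the core of the Y box), searched on both strands.
H2-Eb1: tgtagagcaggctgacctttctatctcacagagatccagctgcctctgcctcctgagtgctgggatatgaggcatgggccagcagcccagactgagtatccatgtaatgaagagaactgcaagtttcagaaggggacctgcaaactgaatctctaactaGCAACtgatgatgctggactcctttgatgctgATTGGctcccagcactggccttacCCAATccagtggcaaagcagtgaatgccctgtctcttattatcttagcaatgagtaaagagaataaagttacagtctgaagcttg
H2-Aa: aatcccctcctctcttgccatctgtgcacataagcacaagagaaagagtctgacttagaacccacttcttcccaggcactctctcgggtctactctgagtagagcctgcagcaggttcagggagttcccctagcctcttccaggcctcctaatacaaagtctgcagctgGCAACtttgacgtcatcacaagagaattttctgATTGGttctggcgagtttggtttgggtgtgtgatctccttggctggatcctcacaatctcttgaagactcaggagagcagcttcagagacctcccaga
Both sequences hold GCAAC followed by ATTGG on the printed strand, 27 bases apart in H2-Eb1 and 28 in H2-Aa, and H2-Eb1 holds a further ATTGG on the other strand, read as CCAAT. Of 32851 promoters of this length, 37.4% hold ATTGG, 35.2% hold GCAAC and 5.0% hold both in this order on 1 strand. The letters are those of the reference strain and say nothing of the FVB/NJ allele.

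H2-Eb1 read 2.76 in the male and 3.52 in the female FVB/NJ array. Other males ran from 3.08 (median 6.29) to 7.62 and other females from 3.22 (median 6.54) to 8.43. The difference was -3.17 ± 0.24, 9.03-fold lower (adjusted p = 7.01e-10). BUB/BnJ (3.15) and SWR/J (3.45) were equally low, and no other strain was nearer to FVB/NJ than to the mean of the others; these strains are known to share the H2 haplotype q. H2-Aa had 7.67 and 8.47 against medians of 6.71 and 6.83, a difference of 1.34 ± 0.33 (adjusted p = 0.0230), with SWR/J at 8.10. That call was lost without the FVB/NJ male (adjusted p = 0.125), without the female (0.337) and with the liver covariate (1.02, adjusted p = 0.523), and further probe sets showed 0.26 and -0.14. The other class II genes did not pass: H2-Ab1 at 0.35, Cd74 at 0.44, H2-DMa at 0.12, H2-DMb2 at -0.09 and H2-Ea at -0.39. Among 11 tested genes of class I and peptide loading, H2-K1 (2.06 ± 0.24, adjusted p = 2.13e-06) and H2-D1 (1.86 ± 0.20, adjusted p = 3.62e-07) were called higher. The share called over all genes was 0.758%. For H2-K1 and H2-D1, BUB/BnJ (10.81 and 11.49) and SWR/J (10.46 and 11.17) read above FVB/NJ (10.27 and 11.02). In H2-K1 9 other strains, and in H2-D1 6, were nearer to FVB/NJ than to the mean of the others. The lowest were AKR/J (5.12 and 6.75), CBA/J (5.12 and 6.82), C58/J (5.37 and 7.09), C3H/HeJ (5.46 and 7.63), MRL/MpJ (5.47 and 7.05) and C57BR/cdJ (5.55 and 6.92). These strains pulled the mean of the others down to 8.21 for H2-K1 and 9.16 for H2-D1. Class I heavy chains are near-identical between genes, and the probe sets disagreed: for H2-K1 1 of 4 and for H2-D1 4 of 8 pointed the other way, with H2-D1 values down to -1.25, so the direction for these genes is uncertain. B2m, the shared light chain, stood at -0.18 and Tapbp, which loads peptides, at -0.38, and neither passed the test. Of 30 interferon-stimulated genes 0 were called by limma. Of these, 17 were negative in both FVB/NJ arrays and 2 positive in both, the list median was -0.13, and the lowest was Ifit1 at -0.91 (adjusted p = 0.0715). Over all genes 38% were negative in both arrays and 20% positive in both.

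Among the markers of sensory neuron types, 2 of 12 tested itch neuron genes (Nts and Mrgpra3), 1 of 14 non-peptidergic nociceptor genes (Mrgpra3 again) and 1 of 4 low-threshold C fibre genes were called, where 0.758% of all genes were. Nts, the neuropeptide neurotensin, read 4.98 in the male and 4.77 in the female FVB/NJ array, against other males of 5.77 to 10.14 (median 7.20) and other females of 4.44 to 8.21 (median 7.61). FVB/NJ had the lowest strain mean, 4.88, followed by BUB/BnJ at 5.43 and AKR/J at 5.57. The difference was -2.45 ± 0.49 (adjusted p = 0.00376), and it lost its call without the FVB/NJ male (adjusted p = 0.112), without the female (0.106) and with the liver covariate (-2.72, adjusted p = 0.0805). Its receptor gene Ntsr2, picked after its value was seen, was higher by 1.51 (adjusted p = 8.44e-05). For Ntsr2 FVB/NJ ranked 4 of 23 strains, 7 other strains were on its side, and the gene was not called with strain spread as error. Mrgpra3, the receptor for chloroquine on itch neurons, read 7.59 and 8.50, a difference of 1.05 ± 0.16 (adjusted p = 8.35e-05). FVB/NJ ranked 3 of 23 strains after RIIIS/J (8.69) and NOD/LtJ (8.51), 15 other strains lay on the same side, and strains such as SJL/J (3.26) and NZW/LacJ (3.76) lowered the mean of the others to 6.99. The Mrgpra3 call was lost without the FVB/NJ female (0.79, adjusted p = 0.0616), with the liver covariate (0.77, adjusted p = 0.106) and without the other Swiss strains (0.81). The other 10 of 12 tested itch neuron genes, Nppb (-0.50) and Sst (-0.26) among them, were not called. Th, tyrosine hydroxylase, marks low-threshold C fibres in the ganglion. It read 7.39 and 7.17 against medians of 8.73 and 8.27, a difference of -1.08 ± 0.19 (adjusted p = 6.12e-04), which dropped out without the FVB/NJ male (adjusted p = 0.0757). NZW/LacJ (6.45) was lower still and C57BR/cdJ (7.29) and AKR/J (7.59) were close. The further C fibre genes Tafa4 (-0.17), Dgkk (-0.06) and Cdh9 (-0.04) did not pass.

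None of the genes named in the title of the series was called by limma. Chrna6, the alpha6 nicotinic subunit, read 8.19 and 7.93, rank 7 of 23 strains, with a difference of 0.39 ± 0.18 (adjusted p = 0.423). P2rx3 stood at -0.12 ± 0.09 (adjusted p = 0.735), rank 19 of 23, and P2rx2, which was dim on all arrays (FVB/NJ mean 3.27), at -0.10 ± 0.22 (adjusted p = 0.944). Over 7 lists of ion channels and transmitter receptors 108 genes were tested, 0 were called by limma, and the differences ran from -0.81 (Htr1d) to 0.87 (Gria1, adjusted p = 0.0328, under the minimum size). Lists of peptidergic nociceptors (11 tested), large myelinated neurons (16), sensory neuron transcription factors (23), Hox genes (17) and synaptic vesicle genes (29) also had 0 called members by limma, with medians between -0.12 and -0.07. In all, 29 of 40 lists besides liver and sex chromosome genes held no called gene. With 0.758% of all genes called, 0 calls among 108 or fewer genes lie near the share over all genes.

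Named genes of lipid and small-molecule metabolism were called in both directions. Gdpd3, a phosphodiesterase of lysophospholipids, had the largest difference of all genes, 4.49 ± 0.23 (adjusted p = 2.19e-13). It read 9.93 and 9.92, against medians of 5.02 and 4.08, and 129S1/Sv1mJ, C57BR/cdJ, NON/LtJ and RIIIS/J shared the high level. In the test with strain spread as error it was not called (adjusted p = 0.740). Aspa, which splits N-acetylaspartate and is lacking in Canavan disease, read 9.42 and 9.49, above the highest other male (8.87) and female (9.24). It was higher by 1.59 ± 0.20 (adjusted p = 7.82e-06) with C57BR/cdJ next at 9.05. It was the 1 called gene of 5 tested on a list of spinal cord and oligodendrocyte genes, on which Mobp stood at -0.86 (adjusted p = 0.779). Fmo2, a flavin monooxygenase that oxidises foreign compounds, read 6.16 and 6.11, with no other male above 5.65 and no other female above 5.43. Its difference was 1.32 ± 0.19 (adjusted p = 3.97e-05), and 3 of 4 tested probe sets were called, at 1.32, 1.33 and 1.31. Of 37 tested detoxification and oxidative stress genes it was the 1 called, and the list median was 0.14. The share called over all genes, to set beside these counts for Aspa and Fmo2, was 0.758%. Glo1, which detoxifies methylglyoxal and is known for a strain duplication, was lower by -0.75 ± 0.09 (adjusted p = 3.96e-06), below the minimum size of a call. In Glo1 9 other strains were nearer to FVB/NJ (10.76) than to the mean of the others (11.51). The next strains were NOD/LtJ (11.16), BTBT T+tf/J (11.19), SWR/J (11.21) and KK/HIJ (11.38), and all further strains read 11.94 or more.

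On the low side, Acad9, a mitochondrial acyl-CoA dehydrogenase needed to assemble respiratory complex I, read 4.34 and 4.73. Other males lay between 4.97 and 7.19 (median 6.84) and other females between 5.48 and 7.96 (median 7.36), so both FVB/NJ arrays were below all others, and BUB/BnJ came next at 5.23. The difference was -2.46 ± 0.13 (adjusted p = 2.19e-13), with -0.72 on a further probe set. None of 66 tested genes of the respiratory chain was called by limma, with a median of -0.01. Of these, the complex I subunits Ndufs5 (-0.94, adjusted p = 1.39e-05) and Ndufv3 (-0.55, 0.00225) and the complex IV subunit Cox5b (-0.32, 0.0306) passed the adjusted p but not the minimum size. Lipo3, a lipase family member, read 5.78 and 5.66, under all other males (from 6.72) and females (from 6.66), a difference of -1.73 ± 0.21 (adjusted p = 5.12e-06). Galc, the lysosomal enzyme that is lacking in Krabbe disease, read 3.35 and 3.17 by its leading probe set, a difference of -1.68 ± 0.22 (adjusted p = 1.06e-05). It split the strains rather than marking FVB/NJ: 11 other strains were as low, arrays of others reached 7.62, and a further probe set showed 0.23.

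Membrane transporters made a further group among the named genes. Slc14a1, a urea transporter, read 4.89 in both arrays against medians of 3.29 and 3.05, a difference of 1.53 ± 0.14 (adjusted p = 1.92e-08), with NON/LtJ (5.26) and SJL/J also high. Slc15a2, a peptide transporter of glia, was higher by 1.53 ± 0.25 (adjusted p = 3.11e-04) with all 3 tested probe sets called. C58/J, NON/LtJ, P/J and SWR/J lay on the same side, and the call was lost without the FVB/NJ female (adjusted p = 0.0859) and with the liver covariate (0.0542). Slc16a12, a carrier of creatine, read 5.90 and 5.77, below the lowest other male (6.18) and female (6.51). Its difference of -1.19 ± 0.23 (adjusted p = 0.00294) lost its call without the FVB/NJ male (adjusted p = 0.0525), without the female (0.137) and with the liver covariate (0.133).

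Nuclear and noncoding transcripts included Psmc3ip, a partner of meiotic recombination proteins. It read 7.46 in the male and 6.61 in the female FVB/NJ array. All other males but NOD/LtJ (6.98) and all other females but NOD/LtJ (6.56) were far lower, with medians of 4.13 and 3.59. The difference was 3.02 ± 0.12, 8.14-fold higher (adjusted p = 7.57e-16), and both probe sets were called. Snhg12, a host RNA of small nucleolar RNAs, read 3.84 and 3.97, below all other males (from 5.27) and females (from 4.50), a difference of -1.38 ± 0.14 (adjusted p = 1.73e-07). 2700081O15Rik read 5.30 and 5.18, also below all others, by -1.33 ± 0.17 (adjusted p = 6.18e-06). Tpd52l1, of the tumour protein D52 family, read 3.36 and 3.21 against medians of 5.19 and 5.37, a difference of -1.95 ± 0.19 (adjusted p = 1.26e-07), and P/J was the 1 other strain on its side. Zfp991 (2.38 ± 0.26), Creg2 (2.09 ± 0.20), Cpne8 (2.28 ± 0.13), Gm13306 (-2.18 ± 0.15) and Pcdhb9 (-2.27 ± 0.29) were called with 3, 3, 15, 7 and 5 other strains on the side of FVB/NJ. A further probe set pointed the other way for Zfp991 (-0.98) and Cpne8 (-0.30). Zfp991, Gm13306, Pcdhb9, Lipo3 and Mrgpra3 belong to families of similar genes that one probe set may share.

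Schwann cell myelin genes (16 tested) had 0 called members by limma and a median of 0.15. Of these, 11 were positive in both FVB/NJ arrays and 1 negative in both, against 20% and 38% of all genes. Mbp, the basic protein of myelin, stood at 0.22 (adjusted p = 0.245) and Pmp22 at 0.13 (0.631). Satellite glia and other Schwann cell genes (17 tested, 0 called by limma) had a median of -0.13. Endothelial and mural genes (19 tested, 0 called by limma) had a median of 0.28, with Notch3 at 0.71 (adjusted p = 0.0262) and Rgs5, a pericyte gene, at -0.70 (0.0122), both under the minimum size. For circadian genes (14 tested, 0 called by limma) the median was 0.27, and the clock output genes Dbp (1.21, adjusted p = 0.0588) and Hlf (0.82, adjusted p = 0.0582) had the highest values. Macrophage and complement genes (21 tested, 0 called by limma) had 14 members negative in both arrays, where 38% of all genes were. Lgals3, a galectin of activated macrophages, stood at -0.56 (adjusted p = 0.0328), under the minimum size. Aif1 (0.63), Mrc1 (0.34) and C1qa (0.30) were positive in both arrays. Of 4 tested red cell genes, against a share of 0.758% called over all genes, Hbb-b2, a beta globin, was called at 1.02 ± 0.20 (adjusted p = 0.00340). Its other probe set showed -0.03, its call was lost without the FVB/NJ male (0.83, adjusted p = 0.320) and without the A/J male, where it fell under the minimum size (0.9953), and Alas2 of haem synthesis stood at 0.66 (0.593). No tested gene of the muscle (15), fat (12), granulocyte (7) or lymphocyte (4) lists was called by limma, and the lymphocyte genes lay between -0.10 and 0.01. Muscle genes differed widely between the 2 FVB/NJ arrays: Acta1 read 5.51 in the male and 9.48 in the female, Tnnc2 stood 2.45 above the others in the female and at -2.17 in the male, and Myh1 stood at -1.98 (adjusted p = 0.492). Lcn2, of granulocytes, stood at -1.11 (adjusted p = 0.781). The part of muscle transcripts in the other results was not tested.

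Some of the lower genes were neighbours. In the order of tested genes on chromosome 3, Sox2ot, Acad9 and Zfp267 fall within a window of 10 genes, the only window of that size with at least 3 called genes. Sox2ot, a noncoding RNA that overlaps Sox2, read 2.76 in the male and 4.53 in the female, a difference of -1.13 ± 0.30 (adjusted p = 0.0458). It is the least firm call: without the FVB/NJ male the difference was -0.40. The call also ended, with adjusted p-values of 0.0515 to 0.0580, on leaving out 1 of 23 other arrays. These were the males of AKR/J, BALB/CByJ, 129S1/Sv1mJ, SJL/J, NZW/LacJ, BUB/BnJ, CBA/J, KK/HIJ, C58/J, C57BR/cdJ and NON/LtJ, and the females of AKR/J, 129S1/Sv1mJ, c57BL/6J, NZW/LacJ, BUB/BnJ, KK/HIJ, C58/J, RIIIS/J, DBA/2J, NOD/LtJ, C57BR/cdJ and NON/LtJ. Zfp267, a zinc finger gene, read 4.45 and 5.63 against medians of 6.66 and 6.64 (-1.26 ± 0.16, adjusted p = 1.19e-05), with BUB/BnJ, NZO/HILtJ, NZW/LacJ and SWR/J on its side and the call lost without the FVB/NJ male (-0.69, under the minimum size). Between and beside them Mccc1, a carboxylase subunit of leucine breakdown, stood at -0.60 (adjusted p = 0.00622) and Exosc9, of the RNA exosome, at 0.92 (adjusted p = 8.52e-05), neither of them called. On chromosome 10 the called genes Map7, Soga3, Ncoa7 and Tpd52l1 are numbers 55, 75, 83 and 86 in the order of tested genes; this group, with Soga3 at -1.52 ± 0.16 (adjusted p = 2.57e-07) and -0.06 on its other probe set, was picked after the values were seen.

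**Figure D3:**
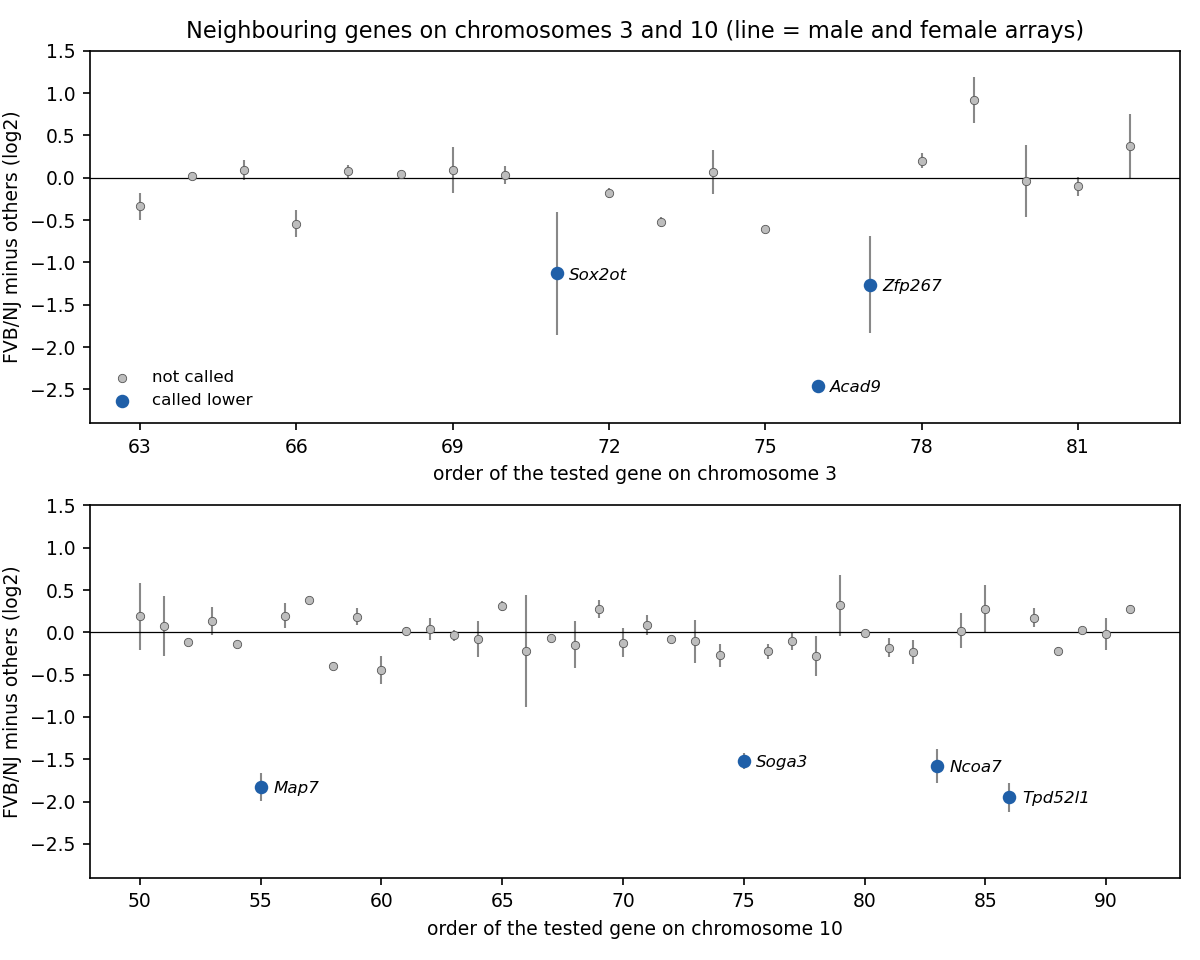
Difference of FVB/NJ from the mean of the other strains in log2 units, against the order of the tested genes on chromosome 3 (upper panel) and chromosome 10 (lower panel); grey lines join the male and the female value. Called genes (blue) are Sox2ot, Acad9 and Zfp267 above and Map7, Soga3, Ncoa7 and Tpd52l1 below, and genes between them lie nearer to 0.

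Most of the differences were shared with other strains. For each called gene, a strain was counted as on the side of FVB/NJ when its mean lay nearer to FVB/NJ than to the mean of the others. In 9 of 78 called genes no other strain did, in 38 between 1 and 4 strains did, and in 31 at least 5, with a median of 4. SWR/J, another strain of Swiss descent, was on the side of FVB/NJ in 39 of 78 genes (50%), 22 of the higher and 17 of the lower. BUB/BnJ followed with 26 (33.3%) and NOD/LtJ with 21 (26.9%). The median of the 22 strains was 14, and the lowest were BALB/CByJ and c57BL/6J with 8 each. SWR/J and BUB/BnJ were both on the side of FVB/NJ in 17 genes, and SWR/J was the 1 other strain in 4. Whether Swiss descent goes with such sharing was not tested. Over all tested probe sets, liver transcripts included, the likeness was weak. The correlation of FVB/NJ deviations with those of another strain was highest for NOD/LtJ (r = 0.15). RIIIS/J (0.14) and SWR/J (0.10) followed, and BTBT T+tf/J (-0.31) was lowest. By Spearman's rho the order changed, with RIIIS/J (0.22), MRL/MpJ (0.21) and NZO/HILtJ (0.21) above NOD/LtJ (0.18) and SWR/J at -0.04. These values are across probe sets within a shared set of arrays and carry no test. The male and the female FVB/NJ deviations correlated at r = 0.42, while the strains ran from 0.14 (P/J) to 0.69 (RIIIS/J).

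**Figure D4:**
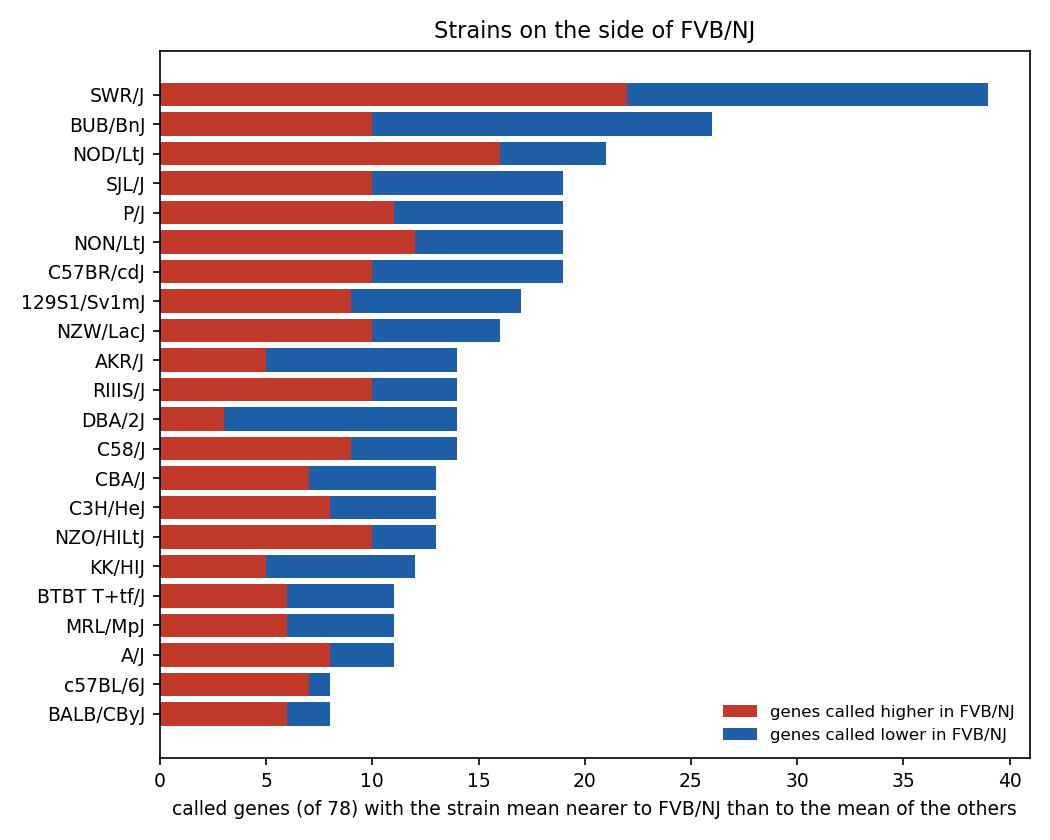
Bars give, for each of 22 other strains, how many of the 78 called genes had a strain mean nearer to FVB/NJ than to the mean of the others, split into genes higher (red) and lower (blue) in FVB/NJ. SWR/J reaches 39 and BUB/BnJ 26, and the shortest bars, BALB/CByJ and c57BL/6J, stand at 8.

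When each of the 23 strains was put in the place of FVB/NJ under the same rule, the number of called genes ran from 56 (BALB/CByJ) to 151 (P/J), with a median of 101. FVB/NJ, with 78, ranked 20 of 23, after SWR/J with 82 and ahead of A/J with 72. Its 16 genes with both arrays outside all others compare with a range of 7 (CBA/J) to 49 (129S1/Sv1mJ) and a median of 27. The number of its differences was thus within the range of the other strains.

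**Figure D5:**
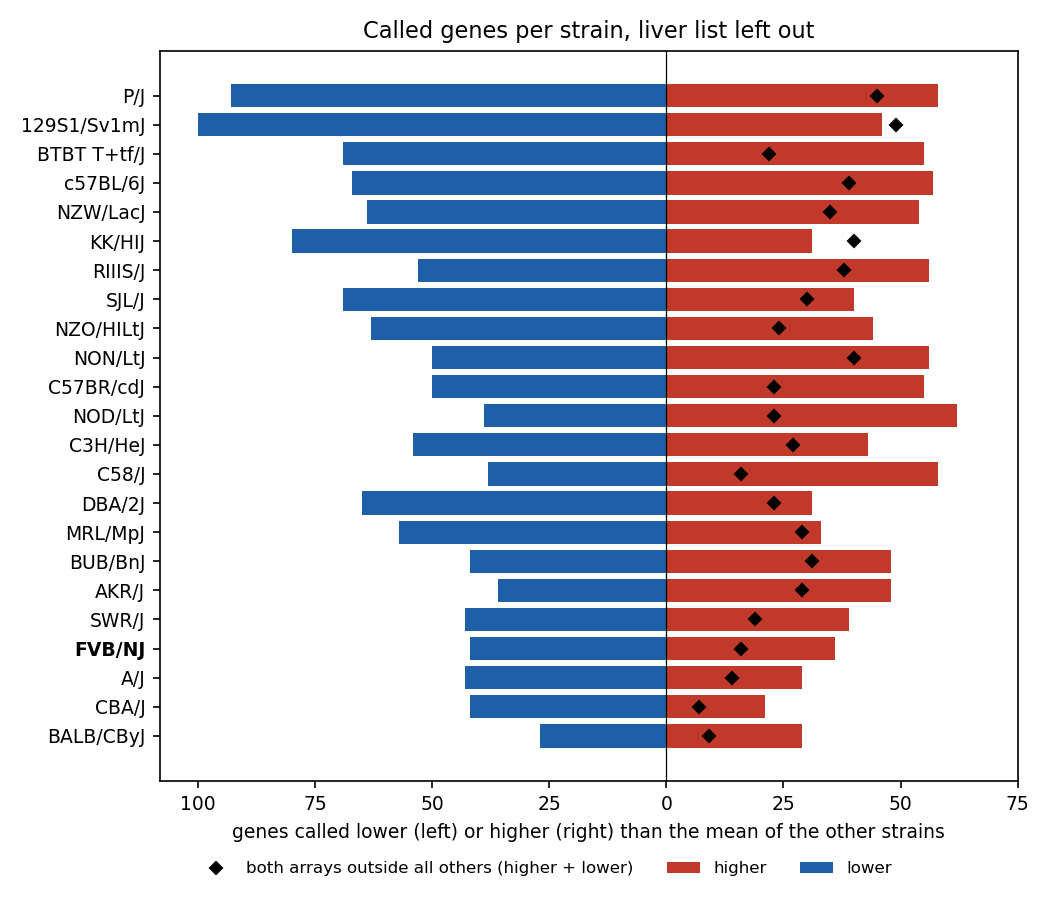
For each of 23 strains, bars give the genes called lower (blue, to the left) and higher (red, to the right) than the mean of the other strains, liver genes left out; black diamonds give the called genes whose male and female arrays both lay outside all other arrays. FVB/NJ has 42 lower, 36 higher and 16 outside, near the bottom of the order, and P/J tops it with 151 called.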

How the data were processed

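Each array measured 45101 probe sets. The deposited values are linear intensities, which, per the submitters' processing notes, the authors computed by GCRMA in R 2.6.2; other settings are not given in the sources used here. The lowest intensity of male arrays (1.635 to 1.655 in those compared) and of female arrays (1.726 to 1.744) did not overlap, so sex was a term of every test but one. Values were used as log2(value + 1), with no further normalization. Control probe sets (64) were left out, and a probe set was tested when above 4 log2 units in at least 2 arrays. The leading probe set of a gene is the one with exactly 1 symbol (34945 had 1, 932 several, 9160 none) and the highest mean; chromosome and gene order came from RefSeq (GRCm38.p6). limma 3.58.1 in R 4.3.3 (lmFit, eBayes) fitted strain means and sex over 46 arrays, with Benjamini-Hochberg adjustment over all probe sets. Differences are FVB/NJ minus the mean of 22 strains, ± SE, and the number of arrays limits their precision. As the replicates of a strain are 1 male and 1 female pool, the error behind the SE and p-values is the spread between such pools after the sex term. It was taken over all 23 strains, so it is not the spread of the 2 FVB/NJ pools alone. A further fit took strain as a random block (consensus correlation 0.246). On simulated data 26.9% of differences of 0.5, 79.1% of 1 and 95.5% of 2 log2 units passed the adjusted p, with 7 false among 21930 probe sets.

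Named genes are the 12 largest rises and falls, up to 2 called members of each list, up to 8 a direction with both arrays outside all others, called genes in windows of 10 neighbours with at least 3 called, and Chrna6, P2rx2, P2rx3, Glo1, H2-Eb1, Tyr, Pde6b and Hc; the last 3 were too dim to test. The strain, the rule and the 42 gene lists were chosen with earlier results of these data known. Replicate 1 is the male and replicate 2 the female array of each strain, so the sex term is the replicate block. Alternatives changed the pseudocount, filter, normalization, sex term, strains compared, error, liver covariate, size threshold, probe set and each array in turn.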

Additional observations from a re-analysis of the deposited data

How the results depend on the processing

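Counts of probe sets and of genes higher or lower in this section include liver genes (189, 43 and 42 in the main fit). The strain error decides most calls. With strain spread as error, 20 probe sets, 4 genes higher and 9 lower were called. In that fit 2 list members, 10 genes outside all other arrays and 13 of 39 named genes stayed called. With log2(value + 16), 106 probe sets, 26 genes higher and 26 lower were called, and 30 of 39 named genes stayed called. Of the 9 lost, Slc14a1 (0.79), Mrgpra3 (0.85), Hbb-b2 (0.81), Fmo2 (0.97), Srprb (0.88), Snhg12 (-0.86), Tyro3 (-0.93) and Zfp267 (-0.99) fell under the minimum size and Sox2ot (-0.61) also missed the adjusted p. The liver covariate left 28 genes higher. The liver genes are themselves members of that mean, so this fall cannot be read as an effect on other genes alone. Leaving out the 4 other Swiss strains raised the genes outside all others to 30. With no minimum difference there were 470 probe sets, 97 genes higher and 139 lower, and with a minimum of 2 there were 48 probe sets. No replicate block, the fit without the sex term, called 162 probe sets. Leaving out each array gave 162 to 200 probe sets, 37 to 45 genes higher, 37 to 44 lower, 8 to 14 list members, 16 to 46 genes outside all others (32 without the FVB/NJ male, 46 without the female) and 30 to 39 named genes. Of 39 called named genes 27 kept their call in all 46 of these. Further probe sets pointed the other way for Zfp991 (-0.98), Cpne8 (-0.30), H2-K1 (-0.13), H2-D1 (-0.78, -0.72, -1.25 and -0.90), Galc (0.23), Hbb-b2 (-0.035), H2-Aa (-0.14) and Srprb (-0.030). The cause of these changes was not tested. Of the 78 called genes 42 rest on 1 tested probe set and 16 have a further probe set called the same way. The choice to leave out DBA/2J and C58/J together was made after the data were seen, and 179 probe sets were then called, 176 of them shared with the 189.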

Other observations

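Further called genes, picked after their values were seen, fall into several kinds of function. Here too a call does not mean that FVB/NJ differs from every strain. Genes of G protein and calcium signalling included Rgs8, which speeds the shut-off of G proteins (-1.34, limma, adjusted p = 3.30e-04), and the calcium sensor Hpca (1.36, adjusted p = 0.00283). Aplnr, the apelin receptor of vessels (1.18, adjusted p = 0.0198), and Cd34, a surface protein of endothelial and stem cells (1.12, adjusted p = 2.42e-04), were higher. On the side of FVB/NJ were 4 other strains for Aplnr and 5 for Cd34. Slco1c1, a thyroxine carrier of brain vessels, was also higher (1.25, adjusted p = 0.0231), with 4 other strains on that side. It stood at 0.48 in the male and 2.01 in the female. No gene of the endothelial and mural list was called. St8sia1, which makes the ganglioside GD3 (-1.68, adjusted p = 5.93e-05), and Mlc1, a membrane protein of astrocytes (-1.39, adjusted p = 5.53e-05), were lower. Car8, a relative of the carbonic anhydrases, was lower than the mean of the others (-1.27, adjusted p = 2.96e-04), but 14 other strains were on the side of FVB/NJ. The vesicle fusion protein Vamp3 was called lower by its leading probe set (-1.07, adjusted p = 8.68e-05), but its other 4 stood between -0.11 and 0.31 and were not called. Tyrp1, a pigment enzyme, was higher by 1.02 (adjusted p = 0.0362), with 7 other strains on the side of FVB/NJ. Of its further probe sets, the one at 1.12 was called and the one at 1.09 (adjusted p = 0.0642) was not. Pdxdc1 was called higher by its leading probe set (1.39, adjusted p = 8.62e-08) while a further probe set stood at -1.59. By the leading probe set 16 other strains were on the side of FVB/NJ.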
